A study of Mus musculus with 4 samples.

Results

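The Slit and Robo genes are 6 genes of mouse axon guidance, Slit1, Slit2, Slit3, Robo1, Robo2 and Robo3, and their differentially methylated regions were described in cortex lacking the histone methyltransferase NSD1. The authors' deposited table lists 101350 regions, and the 81 that share at least 1 bp with the RefSeq body of 1 of these genes were taken, in all cytosine contexts. DNA was from somatosensory cortex of mice aged 2.5 months and was read by whole-genome bisulfite sequencing, in which cytosines that stay unconverted count as methylated. The 2 groups were Nsd1Nex-cKO mice (cKO, 2 libraries) and Nsd1fl/+ mice (Ctrl, 2 libraries), so control mice also carry a floxed Nsd1 allele, and the labels do not say whether they carry the Cre. The Nex driver uses the Neurod6 locus and deletes in excitatory cortical neurons, whereas glia, vessels and interneurons of the dissected tissue keep the gene, so that a change in few cells and a smaller change in many cells cannot be told apart in these levels. NSD1 methylates histone H3 at lysine 36, and the comparison asks where DNA methylation differs without it. The table gives 1 mean level per group and region and none per library, so the differences carry no error, no test was possible, and depth is unknown. Every statement of higher or lower is the direction of a region in the authors' list. The number of cytosines listed for a region covers both strands, so that a CpG site counts as a pair: it equalled the both-strand number in the RefSeq sequence for 202 of 211 CG and 42 of 42 CHH regions lying wholly inside RefSeq promoter windows, over all genes.

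Slit proteins are large secreted ligands that mostly repel growing axons, and Robo proteins are the transmembrane receptors through which axons read them. In the developing forebrain, Slit1 and Slit2 acting through Robo1 and Robo2 keep corticofugal, thalamocortical and callosal axons on their paths, and Robo1 also acts in the migration of cortical neurons. Robo3 is the divergent member that lets commissural axons cross the midline. DNA is methylated mainly at CG sites, while mature neurons also carry methylation in CHG and CHH contexts (H being A, C or T), which is laid down after birth by DNMT3A.

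The members were alike in the direction of their CG regions, though not in their number, and differed in the direction of their CHH regions. In CG, all 46 regions were lower in cKO and 0 were higher, and each of the 6 genes held at least 1. In CHH, 25 of 35 regions were higher in cKO and 10 were lower. Robo2 held 11 CHH regions, all higher, and Slit1 held 2, both lower. Slit2 held 5 higher and 1 lower, Slit3 held 4 of each, and Robo1 held 5 higher and 3 lower. Robo3 held no CHH region, and 0 CHG regions lay in any member.

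A CG region lower in cKO thus lay in 6 of 6 members, against 18.6% of 21792 protein-coding genes, and one higher in 0 of 6, against 7.26%. A CHH region lower in cKO lay in 4 of 6 (15.2% of all) and one higher in 4 of 6 (15.0% of all). Long genes hold more regions, and 5 of the 6 members, all but Robo3, are at least 100 kb long. Of these 5, all held a CG region lower, against 54.0% of the 2427 protein-coding genes of that length, and 0 held one higher, against 25.7%. A CHH region lower lay in 4 of the 5, all but Robo2, against 42.4%, and one higher in 4, all but Slit1, against 55.6%. A CHG region lay in 0 of the 5, against 4.86%. The 5 are 149 to 1555 kb long, so a cut at 100 kb does not match their lengths. Per 100 kb, CG losses numbered 5.75 in Robo3, from 1 region in 17.4 kb. They numbered 4.68 in Slit1, 2.06 in Robo1, 1.70 in Slit3, 1.23 in Slit2 and 0.193 in Robo2. Over all protein-coding gene bodies that rate was 1.34. Counted by region, 0 of 46 CG regions were higher in cKO, against 14.8% of those in all protein-coding genes, and 25 of 35 CHH regions were higher (71.4%), against 41.2%. CHH gains per 100 kb were 1.53 in Slit2, 0.707 in Robo2, 0.681 in Slit3, 0.490 in Robo1 and 0 in Slit1 and Robo3. Over all protein-coding gene bodies the rate was 0.762, and Slit2 alone was above it. CHH losses per 100 kb were 1.34 in Slit1, 0.681 in Slit3, 0.306 in Slit2, 0.294 in Robo1 and 0 in Robo2 and Robo3, against 1.09. The high share of gains thus went with few losses. A lack of CG gains was common among genes with several CG regions, since 77.1% of the 1678 protein-coding genes with at least 3 of them had none higher.

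**Figure D1:**
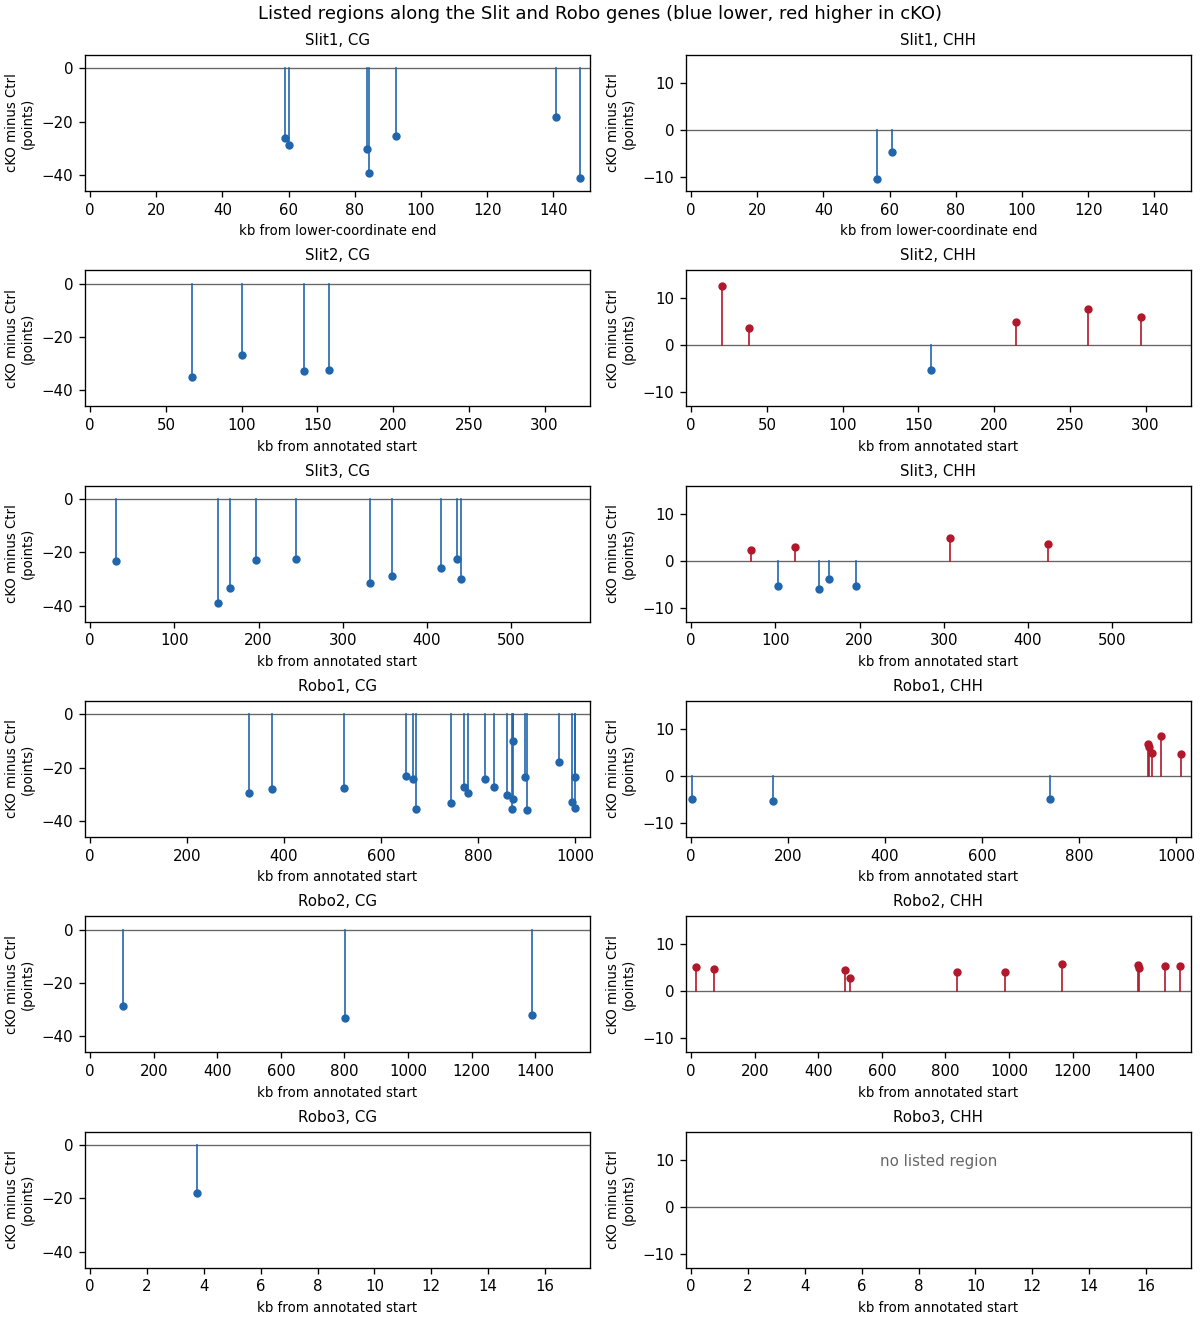
Listed regions along each gene, with CG regions in the left column and CHH regions in the right; the x axis is the distance in kb from the annotated start (for Slit1 from its lower-coordinate end) and the y axis the cKO minus Ctrl difference in percentage points of methylation. All 46 CG regions point down, while CHH regions point up throughout Robo2, up at the far end of Robo1 and both ways in Slit2 and Slit3.

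At the transcript starts that could be matched the members stood near the background. RefSeq promoter windows on GRCm38.p6 (the assembly of mm10), from 250 bases before to 50 after a transcript start, were matched for 5 of the 6 genes, Slit1 having no entry, with 7 windows in all. 0 of these 7 windows overlapped a region, and since 2.74% of all 32851 windows did, a count of 0 shows nothing particular to these genes. One window per gene is printed below, 5′ to 3′ on the gene's strand with each CG in capitals, to show how many sites of methylation each start offers.
Slit2, chr5:47982905-47983204, plus strand: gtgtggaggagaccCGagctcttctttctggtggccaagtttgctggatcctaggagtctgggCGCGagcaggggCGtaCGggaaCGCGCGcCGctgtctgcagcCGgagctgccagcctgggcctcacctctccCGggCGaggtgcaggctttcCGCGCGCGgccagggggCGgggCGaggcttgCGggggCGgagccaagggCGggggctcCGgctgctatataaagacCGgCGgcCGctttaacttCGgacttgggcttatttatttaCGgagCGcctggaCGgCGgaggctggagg
Slit3, chr11:35121206-35121505, plus strand: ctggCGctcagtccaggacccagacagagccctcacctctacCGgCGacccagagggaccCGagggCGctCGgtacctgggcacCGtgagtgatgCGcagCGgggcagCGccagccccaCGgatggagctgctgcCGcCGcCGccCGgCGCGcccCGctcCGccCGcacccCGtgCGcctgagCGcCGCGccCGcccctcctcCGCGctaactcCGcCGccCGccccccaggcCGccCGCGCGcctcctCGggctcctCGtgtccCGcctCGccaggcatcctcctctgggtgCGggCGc
Robo1, chr16:72662899-72663198, plus strand: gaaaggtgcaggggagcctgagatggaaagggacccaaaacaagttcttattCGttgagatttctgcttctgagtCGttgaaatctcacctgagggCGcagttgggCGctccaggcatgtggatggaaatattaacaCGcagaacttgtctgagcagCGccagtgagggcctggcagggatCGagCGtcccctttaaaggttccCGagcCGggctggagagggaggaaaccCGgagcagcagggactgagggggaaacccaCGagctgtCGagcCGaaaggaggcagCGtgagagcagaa
Robo2, chr16:75447244-75447543, minus strand: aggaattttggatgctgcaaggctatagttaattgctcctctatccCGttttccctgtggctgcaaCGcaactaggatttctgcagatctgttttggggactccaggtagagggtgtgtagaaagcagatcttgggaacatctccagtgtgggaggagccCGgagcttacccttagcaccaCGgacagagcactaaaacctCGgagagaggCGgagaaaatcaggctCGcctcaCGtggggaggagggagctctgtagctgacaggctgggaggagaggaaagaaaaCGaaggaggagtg
Robo3, chr9:37433126-37433425, minus strand: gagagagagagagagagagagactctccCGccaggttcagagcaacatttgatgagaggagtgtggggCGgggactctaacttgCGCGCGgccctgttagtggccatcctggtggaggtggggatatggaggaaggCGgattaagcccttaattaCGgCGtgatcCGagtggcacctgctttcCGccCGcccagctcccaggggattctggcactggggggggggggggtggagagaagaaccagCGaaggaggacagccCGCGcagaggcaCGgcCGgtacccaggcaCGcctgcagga
The Slit3 window held 41 CG sites and the Slit2 window 30, against 17 in Robo3, 15 in Robo1 and 9 in Robo2, and the median over all windows was 7. The other 2 Robo2 windows, inside the gene, held 5 and 17. The Robo1 window also lay inside its gene, 636 kb from the annotated start. A CHH loss lay 2.25 kb from that annotated start, with 0.675% in cKO and 5.55% in Ctrl. The nearest region to a printed window was 0.821 kb away for Robo3, 1.66 kb for Slit2, 7.20 kb for Slit3, 8.70 kb for Robo2 and 15.6 kb for Robo1, each lower in cKO. All but that of Robo1 lay outside the gene body. Outside protein-coding genes, 0.744% of CG regions and 2.14% of CHH regions of the whole table were higher. For the other 2 Robo2 windows the nearest region was a CHH gain, 130 and 49.5 kb away. The region beside Slit2 lay 0.048 kb outside the gene body (chr5:47981157-47981243, CHH, 1.74% in cKO and 7.20% in Ctrl) and the one beside Robo3 0.810 kb outside (chr9:37434246-37434371, CG, 17.4% in cKO and 48.4% in Ctrl), so neither counts among the 81. Of the 81 regions, the closest to either end of its gene lay in Slit1, 1.18 kb from the upper-coordinate end (CG, 14.4% in cKO and 55.6% in Ctrl). Slit1 had no strand in the sources used, so whether this end is its start was not determined.

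Among the ligands, Slit1 on chromosome 19 (41597824 to 41747275) carried losses in both contexts. Its 7 CG regions ranged from 8.20% to 55.2% in cKO, against 26.4% to 82.9% in Ctrl. The region with the largest difference of any CG region in the members lay at chr19:41745913-41746093, with 14.4% in cKO and 55.6% in Ctrl over 18 CpG cytosines. A second one near the same end (chr19:41738450-41738555, 20 CpG cytosines) had low levels in both groups, 8.20% in cKO and 26.4% in Ctrl. The other 5 lay between 58.9 and 92.5 kb from the lower-coordinate end and sat at 43.5% to 55.2% in cKO and at 72.5% to 82.9% in Ctrl. The pair of CHH losses flanked the first 2 of these CG losses. One (chr19:41653973-41654094, 47 cytosines) had 1.24% in cKO and 11.7% in Ctrl, the largest CHH loss in the members, and the other (chr19:41658618-41658688, 29 cytosines) had 1.50% in cKO and 6.10% in Ctrl. Slit1 had 4.68 CG losses per 100 kb, against 1.34 over all protein-coding gene bodies.

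Slit2 on chromosome 5 (47981291 to 48307735) carried CHH gains toward both ends and losses in the middle. Its strongest gain lay at chr5:48001700-48001906, 20.5 kb from the annotated start, with 21.1% in cKO and 8.41% in Ctrl over 64 cytosines. It was the largest CHH difference of either direction in the members and held the highest CHH level among them in cKO. A smaller gain followed at 38.2 kb, with 4.64% in cKO and 0.924% in Ctrl. The 3 gains beyond the middle had 5.76%, 11.7% and 9.86% in cKO, against 0.875%, 3.84% and 3.74% in Ctrl, at 214, 262 and 297 kb. Between these outer gains lay all 4 CG losses, at 67.2, 100.1, 141 and 158 kb. Their levels were 44.5%, 31.3%, 40.6% and 8.55% in cKO, against 79.3%, 58.1%, 73.4% and 40.8% in Ctrl. The last of them (chr5:48138992-48139130) lay 0.181 kb from the one CHH loss in Slit2 (chr5:48139311-48139445, 45 cytosines), which had 1.001% in cKO and 6.35% in Ctrl.

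Slit3 on chromosome 11 (35121456 to 35708507) held 10 CG losses and CHH regions of both directions in equal number. Its leading region (chr11:35273063-35273751, 689 bp, 37 CpG cytosines) had 29.3% in cKO and 68.1% in Ctrl, and it was the longest region in the members. A CHH loss lay inside it (chr11:35273120-35273309, 55 cytosines), with 1.39% in cKO and 7.49% in Ctrl, so both contexts were lower over the same bases. The 10 CG regions had a median of 35.0% in cKO and 68.8% in Ctrl. The 4 CHH losses lay between 103 and 196 kb from the start, with 1.14% to 2.09% in cKO and 5.49% to 7.53% in Ctrl. The 4 CHH gains lay at 71.4, 123, 308 and 423 kb, at 2.76%, 3.77%, 5.59% and 4.70% in cKO against 0.479%, 0.891%, 0.716% and 1.07% in Ctrl. These were small gains from low levels, with a median difference of 3.25 points, against 6.12 points for the gains in Slit2. The last region of either context lay at 440 kb, which left the end of the gene without any. A CHH loss lay also in the long noncoding gene Gm33453, and a CHH and a CG loss in Gm46277, both of which overlap Slit3.

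Slit2 and Slit3 also host the genes of miR-218, Mir218-1 and Mir218-2, whose shared mature strand is known, from human cells and mouse tissue, to target Robo1 and Robo2. The mature sequences from RefSeq (GRCm38.p6) are given 5′ to 3′ with the seed, bases 2 to 8, in capitals, because they tie the ligand genes to the receptors.
mmu-miR-218-5p: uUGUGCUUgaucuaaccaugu
mmu-miR-218-1-3p: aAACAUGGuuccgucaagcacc
mmu-miR-218-2-3p: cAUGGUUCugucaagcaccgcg
The first is made from both loci, while the last 2, one from each locus, have different seeds. Mir218-1 (chr5:48223942-48224051) lay 19.3 kb from the nearest listed region, the CHH gain at 262 kb in Slit2. Mir218-2 (chr11:35616816-35616925) lay 54.9 kb from the nearest, a CG loss in Slit3 at 46.1% in cKO and 76.3% in Ctrl. No listed region overlapped either hairpin. Since 2.74% of all RefSeq promoter windows, of 300 bases each, overlapped a region, this shows nothing particular to hairpins of 110 bases.

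**Figure D2:**
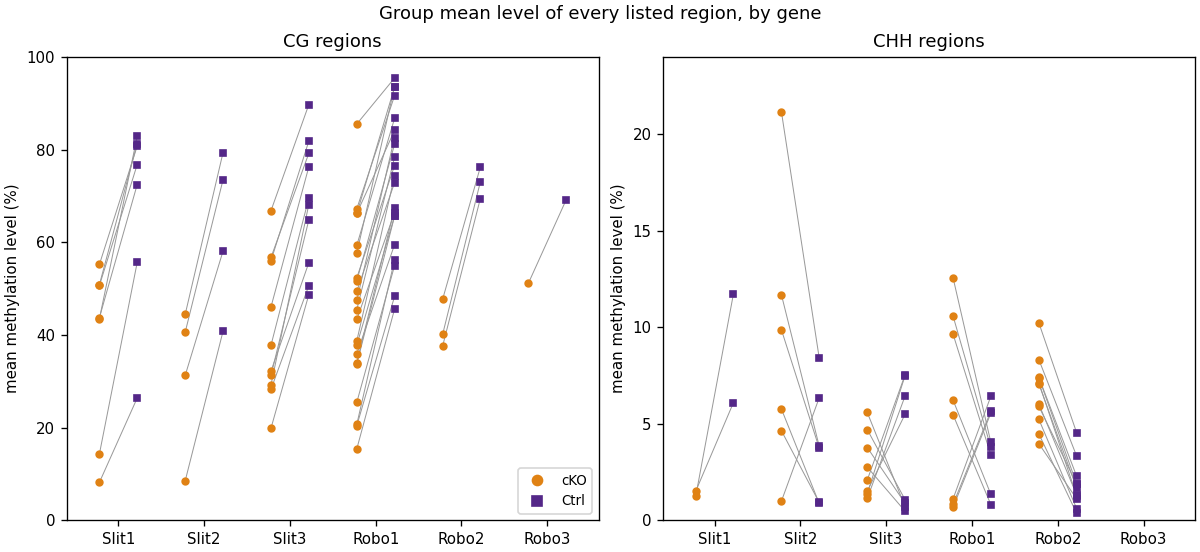
Mean methylation level (percent, y axis) of every listed region by gene, with cKO (circles) left and Ctrl (squares) right and a line joining the 2 group means of each region; CG is in the left panel and CHH in the right, on different scales. CG lines all run up toward Ctrl, and CHH lines cross, since regions lower in cKO had 5.49% to 11.7% in Ctrl and regions higher in cKO had 0.370% to 8.41% in Ctrl.

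Among the receptors, Robo1 on chromosome 16 (72027518 to 73047491) held the most regions, 29. That rank rests on small regions: of those with at least 10 cytosines Robo1 held 12, 4 of them in CG, and Slit3 held 14. Its 21 CG losses had a median of 45.5% in cKO and 74.3% in Ctrl, with ranges of 15.4% to 85.5% in cKO and 45.6% to 95.5% in Ctrl. They were spread unevenly, a split chosen after the values were seen. Over the 384 kb from the transcript start inside the printed RefSeq window to the gene's end, the body held 18 of them (4.68 per 100 kb), and over the 636 kb before that start it held 3 (0.472 per 100 kb). Of the CG losses with at least 10 cytosines, 4 lay from that start on and 0 before it. The largest difference was at chr16:72928496-72928632, with 57.7% in cKO and 93.6% in Ctrl over 6 CpG cytosines. The highest levels in both groups were at chr16:72898941-72899051, with 85.5% in cKO and 95.5% in Ctrl, a difference of -9.92 points, the smallest of any CG region in the members. That region lists 43 CpG cytosines in 111 bp, or 38.7 per 100 bp over both strands, where the next densest in the members had 19.8 and 0.0722% of all CG regions were as dense. A neighbouring region (chr16:72897363-72897496, 13 CpG cytosines) had 38.8% in cKO and 74.3% in Ctrl.

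In CHH, the direction of the Robo1 regions differed along the gene. The first 3 CHH regions, at 2.25, 170 and 741 kb from the annotated start, were lower, with 0.675%, 1.11% and 0.831% in cKO against 5.55%, 6.42% and 5.65% in Ctrl. The last 5, all within the final 76.6 kb (7.51% of the body), were higher. At 943, 945 and 950.0 kb they had 10.6%, 9.64% and 6.23% in cKO, against 3.78%, 3.39% and 1.35% in Ctrl. The gain at chr16:72997087-72997248 was the largest in Robo1, with 12.6% in cKO and 4.05% in Ctrl, and the final one (chr16:73037117-73037303, 67 cytosines) had 5.47% in cKO and 0.820% in Ctrl. From the first to the last of these gains, 66.5 kb, 4 CG losses lay between them, with a median of 46.5% in cKO and 80.5% in Ctrl. The same stretch therefore held CG losses and CHH gains. Robo1, Robo2 and Slit3 each have 8 or more CHH regions, as do 500 protein-coding genes, of which 28.4% held both directions.

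Robo2 on chromosome 16 (73891976 to 75447443, minus strand) held gains in CHH along its whole length and few CG regions. Its 11 CHH gains lay from 16.4 to 1537 kb from the annotated start, or from 1.05% to 98.8% of the body. They make 0.707 per 100 kb, near the 0.762 over all protein-coding gene bodies. Of these 11, 5 had a difference of at least 5 points and 2 an area statistic (the authors' score of a region) at or above the CHH median, while all 11 had at least 10 cytosines. They had a median of 7.07% in cKO and 1.67% in Ctrl, with ranges of 3.97% to 10.2% in cKO and 0.370% to 4.54% in Ctrl. The gain nearest the start (chr16:75431011-75431126, 50 cytosines) had 7.40% in cKO and 2.29% in Ctrl. The largest difference, at chr16:74279283-74279352, came from 7.13% in cKO and 1.28% in Ctrl over 21 cytosines. The highest level was at chr16:74042502-74042580, with 10.2% in cKO and 4.54% in Ctrl. The differences were alike in size, from 2.85 to 5.86 points, a narrower range than the 3.71 to 12.7 points in Slit2. Of those 500 genes, 19.8% had every CHH region higher. The 3 CG losses lay at 105, 802 and 1389 kb, with 47.7%, 40.1% and 37.6% in cKO against 76.2%, 73.1% and 69.4% in Ctrl, and 1 of them had at least 10 cytosines. The 3 make 0.193 CG losses per 100 kb, against 2.06 in Robo1 and 1.34 over all protein-coding gene bodies.

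Robo1 and Robo2 are neighbours, and the 844 kb between them hold no protein-coding gene. This interval held 32 regions, all lower in cKO, which is near the background, since outside protein-coding genes 0.744% of CG regions and 2.14% of CHH regions of the whole table were higher. Its 26 CG losses (3.08 per 100 kb) had a median of 38.8% in cKO and 73.8% in Ctrl. In CHH, the Robo1 and Robo2 bodies held 16 gains and 3 losses, and the interval held 0 gains and 6 losses. The last gain in Robo1 lay 10.2 kb before the gene's end and the first CHH loss beyond it 28.9 kb after, with 0.483% in cKO and 3.64% in Ctrl (chr16:73076413-73076583). At the other end of Robo2, the gain nearest the start lay 16.3 kb inside the gene and a CHH loss 9.27 kb outside (chr16:75456711-75456825), with 1.10% in cKO and 6.62% in Ctrl. At the end of Robo2 the last gain lay 18.6 kb inside the gene, and the nearest CHH region outside, a loss, was 458 kb away. At these 3 gene ends the nearest CHH regions inside and outside differed in direction, while at the start of Robo1 both were losses.

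**Figure D3:**
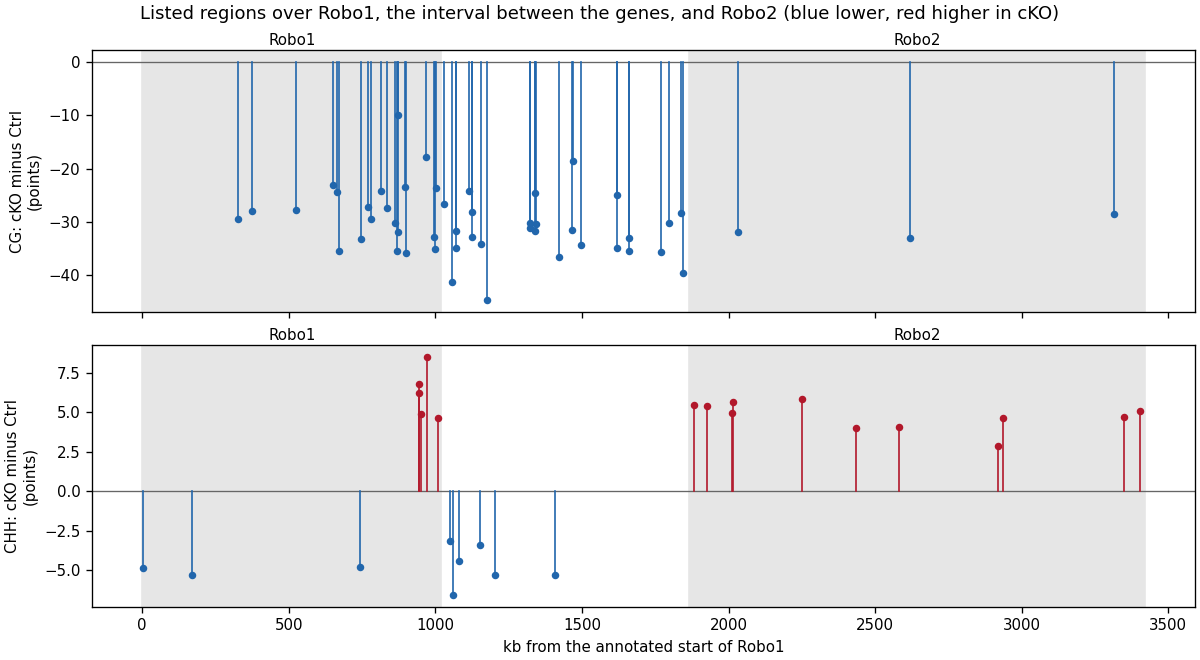
Regions over Robo1, the interval between the genes and Robo2 (bodies shaded), with the distance in kb from the annotated start of Robo1 on the x axis and the cKO minus Ctrl difference in points on the y axis, CG above and CHH below. CG losses are dense from the later part of Robo1 through the interval and sparse in Robo2. CHH gains lie in the bodies, the last ones 10.2 and 18.6 kb inside the gene ends that face the interval. The 6 CHH regions of the interval are all lower.

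Bodies and flanks were counted for all members, a count chosen after the values were seen. The bodies held 25 CHH gains and 10 losses, and the 100 kb on either side of the 6 genes, outside protein-coding genes, held 0 gains and 27 losses. The 59 regions of these flanks, 32 in CG and 27 in CHH, were all lower in cKO. Over the whole table, 41.2% of CHH regions in protein-coding genes and 2.14% of those outside were higher in cKO, so the flanks are near their background and the contrast is one of the whole table. Slit3 held 15 of the 27 CHH losses of the flanks, 12 of them before its start and 3 past its end. The flanks of Slit1 held 3, those of Robo1 5, those of Robo2 2, and those of Slit2 and Robo3 1 each. Around Robo3, a gene of 17.4 kb, the flanks held 11 CG losses, all on the side of its start and 0 past its end.

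**Figure D4:**
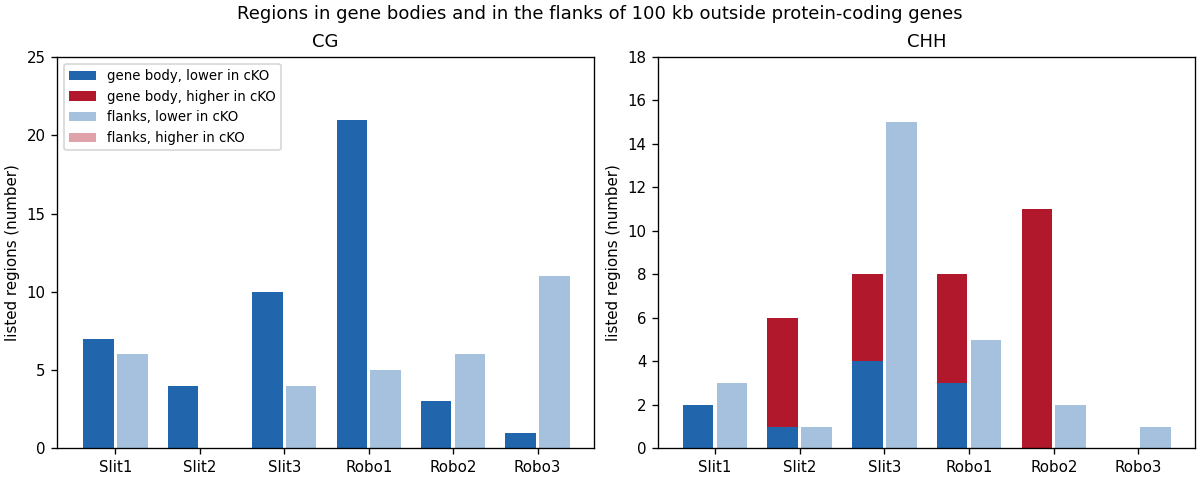
Number of listed regions (y axis) in each gene body (solid, left bar) and in its flanks of 100 kb outside protein-coding genes (pale, right bar), with CG on the left and CHH on the right and red for regions higher in cKO. Red appears in bodies alone, in the CHH panel, for Slit2, Slit3, Robo1 and Robo2, and the flanks hold 0 regions higher in cKO.

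Robo3 on chromosome 9 (37416045 to 37433436, minus strand) held a single region, a CG loss at chr9:37429596-37429782, 3.75 kb from the annotated start. It had 51.2% in cKO and 69.2% in Ctrl over 37 CpG cytosines, a difference of -18.0 points. Only 2 CG regions in the members, both in Robo1, had a smaller difference. With 1 region, nothing can be said of how Robo3 varies along its length.

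CHH losses lay close to CG losses and CHH gains far from them. Of the 10 CHH losses in the members, 7 lay within 5 kb of a CG region, with a median distance of 2.39 kb. Of the 25 CHH gains, 1 did, the largest gain in Robo1 at 2.86 kb, and the median distance was 33.5 kb. Robo2, with only 0.193 CG losses per 100 kb, held 11 of these gains, and how far this sets the distance was not tested. The exceptions among the losses were the first 2 of Robo1, at 326 and 158 kb, and 1 of Slit3, at 48.1 kb. Over all protein-coding genes, 45.0% of 11204 CHH losses lay within 5 kb of a CG region (median 6.56 kb), and 6.31% of 7857 CHH gains did (median 41.2 kb), so the members followed the direction seen in other genes.

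**Figure D5:**
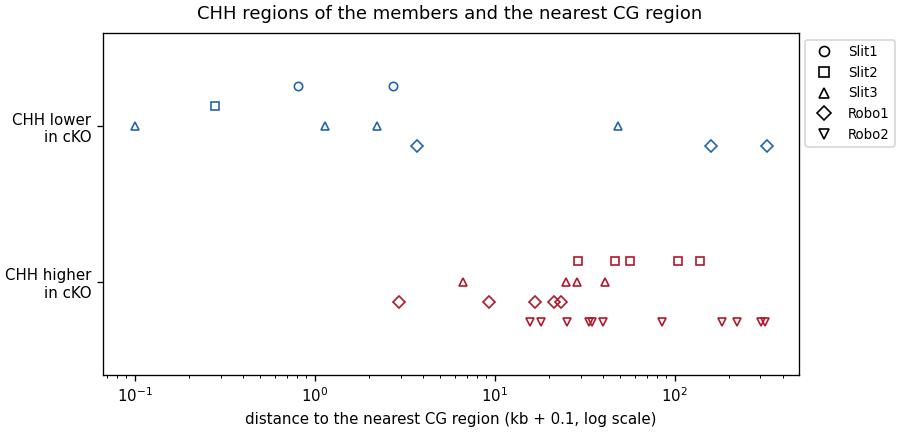
Distance from each CHH region of the members to the nearest CG region (x axis, kb plus 0.1 on a log scale), with CHH losses above and CHH gains below and 1 symbol per gene. Of the losses 7 of 10 lie within 5 kb, and of the gains 1 of 25.

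In size the members were close to other genes. The 46 CG losses had a median of 43.4% in cKO and 73.0% in Ctrl, and a median difference of -28.7 points, against -30.2 points for the 13821 CG losses in all protein-coding genes. The 25 CHH gains had a median of 6.23% in cKO and 1.35% in Ctrl, a median difference of 4.88 points, against 5.15 points over 7857. The 10 CHH losses had a median of 1.19% in cKO and 6.39% in Ctrl, a median difference of -5.30 points, against -4.53 points over 11204. Ligands and receptors had similar CG losses, with a median difference of -28.8 points over 21 regions in the Slit genes and -28.5 points over 25 in the Robo genes. Their CHH regions were 9 higher and 7 lower in the Slit genes, and 16 higher and 3 lower in the Robo genes. The larger share of gains in the Robo genes rests largely on Robo2, with 11 higher and 0 lower. Robo1 had 5 higher and 3 lower, and Robo3 had none. Among the ligands, Slit1 had 0 higher and 2 lower, Slit2 5 and 1, and Slit3 4 and 4. The pooled counts therefore do not separate ligands from receptors gene by gene.

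The other genes of the pathway were read from a list of 27, all matched, of which 18 held at least 1 region. A CG region lower in cKO lay in 5 of 27 genes and one higher in 8, a CHH region lower in 3 and one higher in 14, or 18.6%, 7.26%, 15.2% and 15.0% of all protein-coding genes in the same order. Of the 12 genes of the list that are at least 100 kb long, 4 held a CG region lower (54.0% of all genes of that length), 5 one higher (25.7%), 3 a CHH region lower (42.4%) and 10 one higher (55.6%). The 5 with CG losses were Dock1, Abl1, Srgap1, Enah and Robo4, and the 3 with CHH losses were Dock1, Srgap1 and Pak1, a kinase downstream of Rac. Dock1, an exchange factor that activates Rac, held 55 of the 102 regions of the list, 25 CG losses, 29 CHH losses and 1 CHH gain. Its leading CG region had 23.6% in cKO and 73.9% in Ctrl. The other genes of the list together held 8 CG losses, 3 CHH losses, 11 CG gains and 25 CHH gains.

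Srgap1, a GTPase-activating protein that binds Robo receptors, held 10 regions, which were 6 CHH gains, 2 CG losses and 2 CHH losses. The gains were led by one with 15.7% in cKO and 7.60% in Ctrl. The kinase gene Abl1 held 4 CG losses, led by one with 13.5% in cKO and 33.2% in Ctrl, and 3 CHH gains. Enah, an actin regulator at growth cones, held 3 CG gains, led by one with 64.4% in cKO and 33.1% in Ctrl, as well as 1 CG loss and 1 CHH gain. Ext1, an enzyme that builds the heparan sulfate needed for Slit signalling, held 2 CG gains and 3 CHH gains, led in CG by 73.6% in cKO and 46.3% in Ctrl. The 6 Slit and Robo genes thus held 46 CG regions lower and 0 higher, and the list held 33 lower, 25 of them in Dock1, and 11 higher, against 14.8% higher among CG regions of all protein-coding genes. The gains outside Enah and Ext1 lay in 6 genes with 1 each, among them Nell2, a ligand of Robo3, and Plxna1, a receptor for a Slit fragment. Robo4, the receptor of endothelial cells next to Robo3 on chromosome 9, held 1 CG loss, with 50.6% in cKO and 74.0% in Ctrl over 5 CpG cytosines.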

How the data were processed

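Bisulfite libraries of somatosensory cortex, 2 cKO and 2 Ctrl, were made as the labels' protocols describe. CASAVA, Bowtie2 and the build mm10 are named, without roles, per the submitters' processing notes. How regions were called and how replicates entered the call is not given in the sources used here. The authors' deposited table gives each region's mean level per group as a fraction from 0 to 1, printed here as percent, and an area statistic, a score with no fixed range that was used only to rank and filter. It holds called regions only, with no coverage, so conversion errors or unequal depth could enter the means unseen. The labels number the replicates without saying that they are separate animals.

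Regions were assigned to RefSeq gene bodies on GRCm38.p6 by an overlap of at least 1 bp, leaving out entries in the first 3 Mb of chromosomes (Python 3.11.15, pandas 2.3.3). Overlap counting was tested on simulated data. Differences are cKO minus Ctrl and equalled the deposited ones within 1e-09. Slit1 has no strand in the tables used, so its positions run from the lower coordinate. Exons were not analysed here. Named regions were those with the largest area statistic or difference per gene, context and direction, and the one nearest each start. For Slit1 the lower-coordinate end stood in for the start, which may be its other end. Of the pathway list the genes with the most regions were named. Pak1, Robo4, Nell2 and Plxna1 were named after their values were seen. Members and lists were chosen with earlier results of these data known.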

Additional observations from a re-analysis of the deposited data

How the results depend on the processing

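With only group means per region, neither leaving out a library nor any test was possible, and depth is unknown. The 0 CG gains, the 0 CHG regions, the 6 members with a CG loss and the 25 CHH gains kept their value when whole regions had to lie inside the body. That outcome was fixed, since no region crossed a gene end. Adding 10 kb at both ends gave 16 CHH losses in place of 10 and a median CG difference of -29.5 points. Differences of at least 30 points in CG or 5 in CHH kept 20 CG losses, 6 CHH losses and 11 CHH gains, with medians of -33.1 points for CG losses and -5.39 for CHH losses, and left Robo3 and the CHH gains of Slit3 without a region. At least 10 cytosines kept 20 CG losses, at a median of -27.7 points, 4 of them in Robo1 and 1 in Robo2. An area statistic at or above its context's median kept 21 CG losses, 4 CHH losses, at a median of -5.72 points, and 6 CHH gains, 2 in Robo2 and 0 in Slit3. With 10 kb added at both ends, CG gains still numbered 0. The other alternatives filter or merge the same regions, so they could not add a gain. No paired analysis was possible because the table holds no value per library. The cause of these shifts, beyond the filters' own construction, was not tested.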
